A study of Caenorhabditis elegans with 2 samples.

Results

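Peaks at nuclear transfer RNA (tRNA) genes were taken from chromatin immunoprecipitation and sequencing (ChIP-seq) of the zinc finger transcription factor ZTF-11 in whole Caenorhabditis elegans larvae. A peak is a stretch of the genome listed by the authors' peak caller, and its summit is the base that the caller gives as its highest point. The deposited names of the replicate and pooled lists say that they hold peaks and background, so not every entry of those lists is an enriched site. A peak was counted when its summit was no more than 1000 bp from the 5′ end of a nuclear gene annotated as tRNA. By that rule 467 of the 30000 nuclear peaks of replicate 1 were tRNA peaks, 60 of the 2007 of replicate 2, 49 of the 607 in the list made from both replicates together (the pooled list), and 9 of the 73 in the authors' thresholded list. The genome has 612 such genes, and 423 of them had a peak in replicate 1, 83 in replicate 2, 67 in the pooled list and 13 in the thresholded list.

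The worms were mixed-sex populations at the third larval stage (L3) of strain OP236. All of them carried the mutation unc-119(ed3) on chromosome III and the transgene wgIs236, from which ZTF-11 was made as a fusion with enhanced green fluorescent protein (eGFP). The labels number 2 biological replicates of this 1 group, and their antibody field gives ztf-11. Each sample is a whole animal preparation, so binding in the few cells that may express the factor cannot be told apart from binding elsewhere. No untagged strain, other stage or other factor was used here, so the values below compare genes and lists, not conditions. The pooled and thresholded lists were derived from the same 2 replicates and are no independent sample. The number of reads behind each list is unknown, and the replicate 1 list is far longer than that of replicate 2, so a share in one list was compared with the share over other genes in the same list. The −log10 q value of the tRNA peaks, as deposited, had a median of 0.402 and a highest value of 2.16 in replicate 1, with a median of 0.096 and a highest value of 1.98 in replicate 2, so most of these peaks had a q value above 0.05.

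tRNA genes are transcribed by RNA polymerase III from promoter elements inside the gene itself. The general factor TFIIIC binds an A box near the 5′ end and a B box further downstream, and then places TFIIIB, which recruits the polymerase, just upstream of the gene. Many tRNA genes are present as identical copies, some of them in clusters and many inside introns of protein-coding genes. ZTF-11 belongs to the Myt1 family, which is known in worms and vertebrates for holding non-neuronal genes silent in cells that become neurons.

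The tRNA genes in reach of the thresholded summits are shown to compare their sequences, though only 5 of the 9 summits lay inside a tRNA gene. The 13 genes had 10 distinct sequences, and 5 of these are printed. The other 5 were analysed in the same way and are not printed. The sequences are from RefSeq (assembly WBcel235, which has the coordinates of ce11), read 5′ to 3′ on the strand of the gene, with the core of the B box, GTTCNA, in capitals. They lie at chrX:8036685-8036757 on the minus strand, chrX:6593596-6593668 on the plus strand, chrX:5801472-5801543 on the plus strand, chrV:8499564-8499636 on the minus strand and chrX:16209769-16209852 on the minus strand.
C18A11.t2 (Arg): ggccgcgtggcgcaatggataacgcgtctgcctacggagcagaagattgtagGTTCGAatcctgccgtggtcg
T28B4.t1 (Phe): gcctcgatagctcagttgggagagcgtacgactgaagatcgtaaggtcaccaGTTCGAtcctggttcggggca
F46G11.t1 (Pro): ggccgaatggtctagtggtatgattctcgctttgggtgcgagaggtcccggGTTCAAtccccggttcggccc
ZK994.t2 (Lys): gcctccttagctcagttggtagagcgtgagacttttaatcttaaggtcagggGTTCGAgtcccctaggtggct
R11.t1 (Tyr): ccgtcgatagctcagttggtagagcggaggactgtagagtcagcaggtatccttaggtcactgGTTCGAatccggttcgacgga

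The core began at base 52 or 53 of the 4 shorter genes and at base 64 of R11.t1, which at 84 bases is the longest of the 5. Outside the core the extent of difference varied with the pair of genes. C18A11.t2 and T28B4.t1, set base against base with no gaps, differed at 38 of 73 positions, and T28B4.t1 and ZK994.t2 at 22 of 73. With no gaps, 1 inserted or missing base can count as many differences. T28B4.t1, ZK994.t2 and R11.t1 all hold the run tagctcagttgg near the 5′ end. The whole sequence of C18A11.t2 was found 10 times in the genome, all on X, that of R11.t1 6 times, all on X, and that of F46G11.t1 24 times, 13 of them on X. T28B4.t1 had 10 copies and ZK994.t2 had 14, with 5 of each on X. The same B box core was present in 588 of the 612 annotated tRNA genes (96.1%), at a median start of base 53.

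The strongest tRNA peak of the thresholded and pooled lists, near C18A11.t2, had its summit not in a tRNA gene but beyond its 3′ end, and the 201 bases around that summit are shown because they hold another known motif. The window is chrX:8036311-8036511 on the plus strand, from RefSeq, and the capitals mark GCGCAGGG, which is present 2 times. The copy at 8036401 to 8036408 is on the minus strand, so it is printed as its reverse complement, and its nearest base is 3 bp from the summit. The copy at 8036435 to 8036442 is on the plus strand, and its nearest base is 24 bp from the summit.
C18A11.t2 summit: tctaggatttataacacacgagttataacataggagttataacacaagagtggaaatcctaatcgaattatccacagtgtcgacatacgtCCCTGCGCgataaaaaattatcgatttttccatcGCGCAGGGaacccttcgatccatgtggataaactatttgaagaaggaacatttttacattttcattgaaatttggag

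GCGCAGGG is the core of the motif known from sites on X that recruit the worm dosage compensation complex. Searched on both strands within 100 bp of summits, it was in 1 of the 9 thresholded tRNA peaks and in 11 of all 73 nuclear peaks of that list. It was in 1 of 467 tRNA peaks and in 34 of all 30000 in replicate 1, in replicate 2 in 2 of 60 and in 13 of 2007, and in the pooled list in 1 of 49 and in 14 of 607. The motif was thus at 1 or 2 tRNA peaks in each list. Among peaks on X alone, it was in 1 of 210 tRNA peaks and 18 of all 5797 in replicate 1, and in 2 of 33 and 12 of 351 in replicate 2. In the pooled list it was in 1 of 27 and 13 of 131, and in the thresholded list in 1 of 7 and 10 of 33. The tRNA share was thus the higher in the replicate lists and the lower in the pooled and thresholded lists, on very few peaks. A match is a description of letters and does not show which protein was there.

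tRNA genes had a peak more often than other nuclear genes in each of the 4 lists. In replicate 1 the share was 69.1% (exact Clopper-Pearson 95% interval 65.3% to 72.8%, as for all shares below) against 40.7% of the 46278 other nuclear genes. In replicate 2 it was 13.6% (10.9% to 16.5%) against 4.91%, in the pooled list 10.9% (8.59% to 13.7%) against 1.63%, and in the thresholded list 2.12% (1.14% to 3.61%) against 0.214%. These intervals cover counting error over genes only, and genes in a cluster or with shared sequence are not independent. They say nothing of the spread between worm populations. The other nuclear genes include 15363 genes for Piwi-interacting RNA (piRNA), of which 21.4% had a peak in replicate 1, 4.84% in replicate 2 and 0.631% in the pooled list.

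Among classes of noncoding gene, tRNA genes stood beside those for small nucleolar RNA (snoRNA), which guide the modification of other RNAs. snoRNA genes had a peak in 68.5% of cases in replicate 1, 13.9% in replicate 2 and 12.4% in the pooled list, and these intervals overlapped those of tRNA genes. Genes for small nuclear RNA (snRNA) of the spliceosome had 50.4%, 16.3% and 10.9%. Protein-coding genes had 48.9%, 4.81% and 1.58%. The intervals of these 3 classes of small RNA genes overlapped in replicate 2 and in the pooled list, so a share above that of other genes was not particular to tRNA genes. Ribosomal RNA genes had a peak at 2 of 20 genes in replicate 1 and at 0 of 20 in the other lists, which still allows a share of up to 16.8% by the exact interval.

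Summits lay close to tRNA genes in the shorter lists and were spread more widely in the long replicate 1 list. The median distance to the nearest tRNA 5′ end was 233 bp in replicate 1, 70.5 bp in replicate 2, 58 bp in the pooled list and 42 bp in the thresholded list. The summit was within 100 bp in 159 of 467 tRNA peaks (34%), 37 of 60 (61.7%), 38 of 49 (77.6%) and 7 of 9 (77.8%). Among peaks assigned to protein-coding genes by the same rule, 12.8% were within 100 bp in replicate 1, 17.4% in replicate 2 and 19.3% in the pooled list, and among snoRNA peaks 20.8%, 20.8% and 50%. The plot of summit positions shows that the tRNA class had its highest bins in the 100 bp on either side of the 5′ end. The summit fell inside the short tRNA gene itself in 64 peaks of replicate 1 (13.7%), 15 of replicate 2 (25%), 18 of the pooled list (36.7%) and 5 of the thresholded list. Summits were upstream of the 5′ end in 47.5%, 45%, 38.8% and 33.3% of tRNA peaks.

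**Figure D1:**
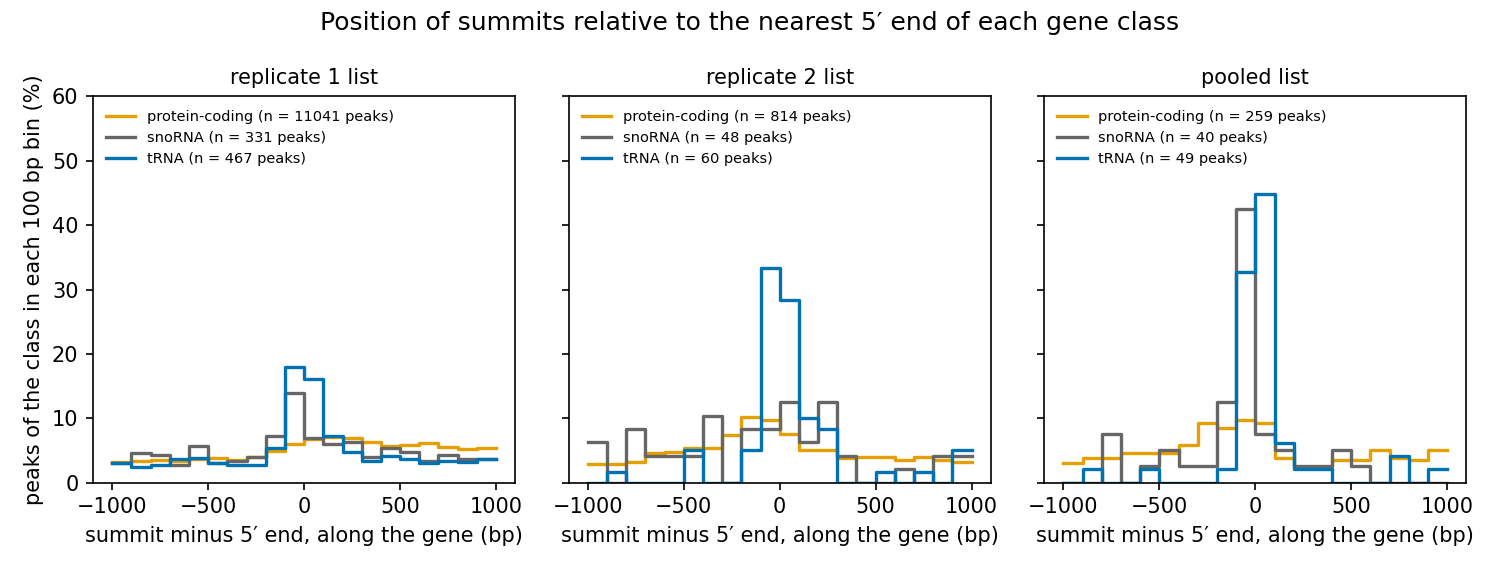
Share of the peaks of each gene class (y axis, %) by position of the summit relative to the nearest 5′ end of that class (x axis, bp, positive inside and downstream of the gene) in 100 bp bins, for the replicate 1, replicate 2 and pooled lists. The tRNA line peaks at the 5′ end in all 3 lists, with 34%, 61.7% and 77.6% of its peaks within 100 bp.

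The shares were also counted over genes at short distance. At 26.5% of tRNA genes a summit was within 100 bp of the start in replicate 1, at 6.54% in replicate 2 and at 6.7% in the pooled list. The same shares were 20.2%, 3.18% and 6.07% of snoRNA genes and 7.15%, 0.726% and 0.255% of protein-coding genes. Many tRNA peaks had other genes in reach. In replicate 1, 161 of the 467 also had a protein-coding 5′ end in reach, and 60 of these were closer to it than to the tRNA gene. In replicate 2 the numbers were 15 of 60 with 3 closer, in the pooled list 11 of 49 with 0 closer, and in the thresholded list 1 of 9 with 0 closer. A snoRNA gene was closer than the tRNA gene at 4 tRNA peaks of replicate 1 and 0 of replicate 2. It was closer at 1 of the 49 pooled and 1 of the 9 thresholded tRNA peaks. For snRNA genes the counts were 1, 2, 1 and 0 in the same order of lists. Genes of the annotation's mixed ncRNA class were in reach of 69% to 81.6% of the tRNA peaks over the 4 lists. Such a gene was closer to the summit than the tRNA gene in 132 of 467 tRNA peaks of replicate 1 (28.3%), 19 of 60 of replicate 2 (31.7%), 12 of 49 of the pooled list (24.5%) and 1 of 9 of the thresholded list. In 107 peaks of replicate 1, 15 of replicate 2, 12 of the pooled and 3 of the thresholded list, more than 1 tRNA gene was within reach.

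The signal score of a peak is the authors' own value, and the sources used here do not state its scale, so scores were read only within a list. The tRNA peaks of replicate 1 had scores from 6.32 to 35.3 with a median of 9.54, and the other nuclear peaks a median of 8.83. In replicate 2 they ran from 14.7 to 48.4 with a median of 17.4 against 16.4, and in the pooled list from 26.4 to 72.2 with a median of 30.3 against 29.7. In the thresholded list the order was the other way, with a median of 43.6 for the 9 tRNA peaks and 48.1 for the other 64. Median scores of tRNA peaks were thus slightly above those of other peaks in the replicate and pooled lists and below them in the thresholded list. The median ranks of tRNA and other peaks were 12177 and 15044 in replicate 1, 690 and 1017 in replicate 2, and 265 and 308 in the pooled list. The strongest nuclear peak in each list was not a tRNA peak. The best places of tRNA peaks among nuclear peaks were rank 14 in replicate 1, rank 9 in replicate 2 and rank 11 in both the pooled and the thresholded list.

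Within replicate 1 the stronger peaks were more often at tRNA genes. The list was split by score into 10 groups of 3000 peaks, and 2.77% (2.21% to 3.42%) of the strongest group and 1.17% (0.814% to 1.62%) of the weakest were tRNA peaks. The gradient was steeper for summits within 100 bp, with 1.4% (1.01% to 1.89%) against 0.267% (0.115% to 0.525%). In 10 groups of replicate 2, 7% (3.88% to 11.5%) of the strongest and 1.99% (0.545% to 5.02%) of the weakest were tRNA peaks, on 14 and 4 peaks, and the intervals overlapped. The replicate 1 list held tRNA peaks down to its end, with the smallest shares, 0.933% and 1.17%, in its last 2 groups.

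**Figure D2:**
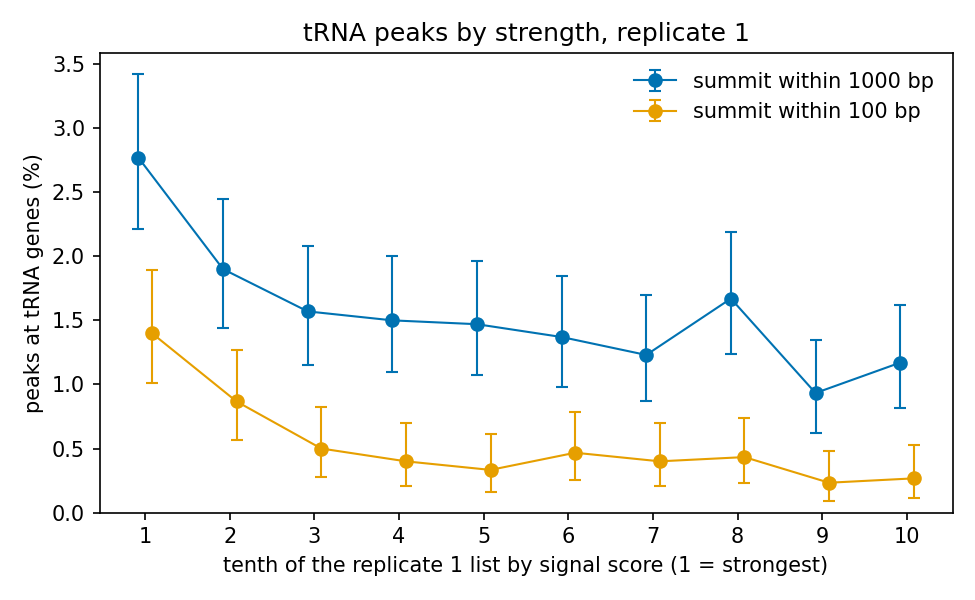
Share of peaks at tRNA genes (y axis, %, with exact 95% intervals) in each of 10 equal groups of the replicate 1 list ordered by signal score (x axis, 1 the strongest), for summits within 1000 bp and within 100 bp. The share fell from 2.77% to 1.17% for the wider distance and from 1.4% to 0.267% for the narrower.

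tRNA peaks were found again in the other replicate more often than other peaks were. Of the 60 tRNA peaks of replicate 2, 43 overlapped a replicate 1 peak (71.7%, 58.6% to 82.5%), against 634 of the 1947 other nuclear peaks (32.6%, 30.5% to 34.7%). Of the 467 tRNA peaks of replicate 1, 47 overlapped a replicate 2 peak (10.1%, 7.49% to 13.2%), against 2.27% (2.1% to 2.44%) of the others. In both directions the intervals of tRNA and other peaks did not overlap. In replicate 1, 18.9% (13.1% to 25.8%) of tRNA peaks with the summit within 100 bp were overlapped by a replicate 2 peak, and 1.97% (0.409% to 5.66%) of those beyond 500 bp, close to the 2.27% of other peaks. In replicate 2 the same shares were 75.7% (28 of 37, 58.8% to 88.2%) and 50% (3 of 6, 11.8% to 88.2%). Those intervals overlapped, on very few peaks beyond 500 bp. Peaks of the pooled list overlapped replicate 1 in 46 of 49 tRNA cases and replicate 2 in 28 of 49, against 95.3% and 47% of the other pooled peaks, and those intervals overlapped.

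Over the 43 overlapping pairs the scores of the replicates were loosely related, with a Spearman rho of 0.375 and a Pearson r of 0.498 on log2 scores. The 634 other nuclear pairs gave 0.233 and 0.433. These are descriptions across sites that share 2 libraries. The plot of paired scores shows C18A11.t2 and C42D8.t1 apart from the rest, both on X.

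**Figure D3:**
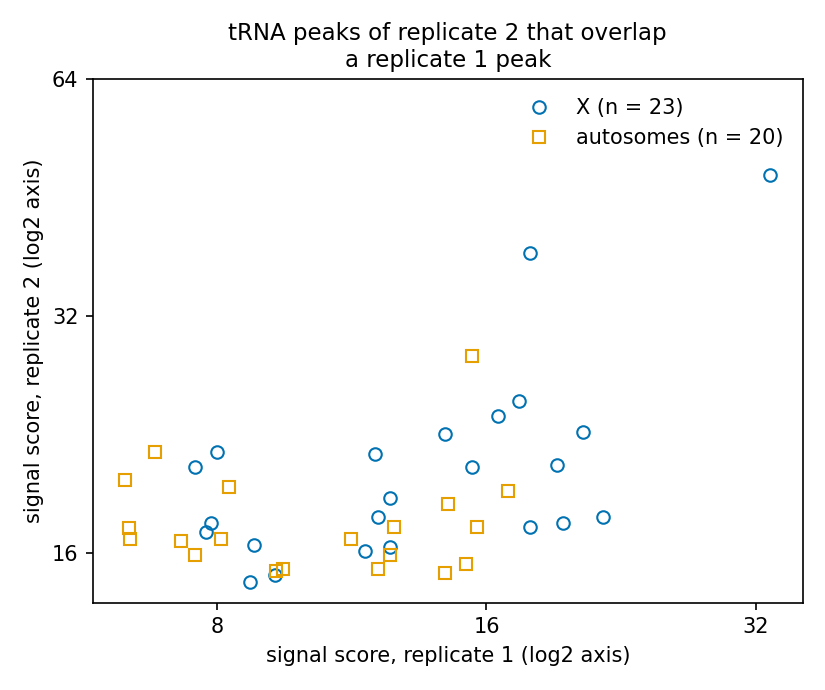
Signal scores of the 43 tRNA peaks of replicate 2 that overlap a replicate 1 peak, with the replicate 1 score on the x axis and the replicate 2 score on the y axis (both log2 axes), 1 point per pair. The 23 pairs on X and 20 on autosomes overlap over most of the range, and the highest pair is C18A11.t2 with 33.2 and 48.4.

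The 9 thresholded tRNA peaks covered 13 tRNA genes of 8 isotypes, the isotype being the amino acid that the tRNA carries. The strongest was that near C18A11.t2, an arginine tRNA gene, with a score of 33.2 in replicate 1, 48.4 in replicate 2 and 72.2 in the pooled list. Its summit at X 8036411 lay 346 bp from the 5′ end. The isoleucine gene C42D8.t1 had scores of 17.9, 38.5 and 51.4 in the same order and a pooled summit 29 bp from its 5′ end. It was the second tRNA peak of both the replicate 2 and the pooled lists but ranked only 752 in replicate 1.

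M02F4.t1, a glycine gene, had scores of 17.4, 25 and 45.5, with the glutamate gene M02F4.t2 in reach of the same summit, which lay 26 bp upstream of M02F4.t1. T28B4.t1, a phenylalanine gene inside an intron of fbxl-4 and on the strand of that gene, had 20.5, 22.8 and 45.3, and its pooled summit lay 28 bp into the gene. R11.t1, a tyrosine gene with R11.t2 and R11.t3 in reach, had 16.5, 23.9 and 42.6, with the pooled summit 42 bp into the gene. All 3 sites scored in the narrow range of 16.5 to 20.5 in replicate 1, and R11.t1 was lowest there.

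T23H4.t1, a glutamate gene on chromosome I, had scores of 15.4, 28.5 and 42.9, and its pooled summit lay 20 bp from the 5′ end. W03G11.t1, a lysine gene, had 21.6, 17.8 and 41.8 with the pooled summit at 64 bp, and it was the weakest of the 9 in the thresholded list. The remaining sites had no replicate 2 peak overlapping the thresholded peak. They were the proline genes F46G11.t1 and F46G11.t2, with 33.8 in replicate 1 and 43.6 in the pooled list and a pooled summit 82 bp upstream of F46G11.t2, and the lysine gene ZK994.t2, with 35.3 and 43.1. The ZK994.t2 summit at V 8500528 was 892 bp upstream of the gene, which lies in an intron of pxn-1, a peroxidasin gene, on the opposite strand. These 2 sites held the 2 strongest tRNA peaks of replicate 1.

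The 10 strongest tRNA peaks differed between the replicates. In replicate 1, after ZK994.t2, F46G11.t2 and C18A11.t2, came F33D11.t2 (Arg, in an intron of col-54, score 25.1), F29C4.t1 (Arg, in an intron of col-99, 24) and F41D9.t3 (Asn, in an intron of sulp-3, 23.3). They were followed by F22F1.t7 (Ile, 21.9), R04D3.t2 (Val, 21.8), W03G11.t1 (Lys, 21.6) and C16D9.t4 (Tyr, 21). Of these 10, 6 were on X and 4 had the summit within 100 bp. The summits named by F33D11.t2, F29C4.t1 and F22F1.t7 lay 526, 762 and 649 bp from the 5′ ends. A nearer replicate 1 peak, 113 bp from the 5′ end of F33D11.t2, scored 11.1. col-54 and col-99 are collagen genes, and sulp-3 encodes an anion transporter of the sulfate permease family.

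In replicate 2, C18A11.t2, C42D8.t1 and T23H4.t1 led. Then came H08J11.t3 (Gln, 25.8), M02F4.t1, R11.t1, T28B4.t1, R04A9.t1 (Gln, 22.7), F34H10.t1 (Ala, 22.1) and R04E5.t6 (Gly, 22). Of these 10, 9 were on X and 8 had the summit within 100 bp. The summit named by R04E5.t6 lay 541 bp from the 5′ end. H08J11.t3 belongs to a cluster of 5 glutamine tRNA genes inside an intron of ajm-1, which encodes a protein of the apical junctions of epithelia. In the pooled list the first 9 were the thresholded sites and the last was F41D9.t3 with 40.9, with 8 of the 10 on X and 7 within 100 bp.

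At the 1000 bp limit itself peaks were unremarkable. In replicate 1 the last peak inside was 999 bp from R04A9.t1 with a score of 7.46 and the first outside 1001 bp from F57G8.t3 with 7.16. In replicate 2 the last inside was 930 bp from T01C1.t1 (17.4) and the first outside 1060 bp from T10B9.t1 (19.8). In the pooled list they were 974 bp from T23H4.t1 (28.5) and 1095 bp from T10B9.t1 (32.7), and in the thresholded list 892 bp from ZK994.t2 (43.1) and 1398 bp from C30E1.t1 (42.2).

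X holds 276 of the 612 nuclear tRNA genes (45.1%), or 15.6 per Mb against 4.07 per Mb on the autosomes, and peaks at tRNA genes were on X in like or greater shares. They were there in 210 of 467 cases in replicate 1 (45%), 33 of 60 in replicate 2 (55%), 27 of 49 in the pooled list (55.1%) and 7 of 9 in the thresholded list. All nuclear peaks were on X in 19.3%, 17.5%, 21.6% and 45.2% of cases. Of the peaks on X, 3.62%, 9.4%, 20.6% and 21.2% were at tRNA genes in those lists, against 1.06%, 1.63%, 4.62% and 5% of autosomal peaks.

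Per gene, the tRNA genes on X had a peak more often in replicate 2 and in the pooled list. In replicate 2 the share was 18.8% (14.4% to 24%) on X and 9.23% (6.35% to 12.8%) on autosomes, and in the pooled list 15.6% (11.5% to 20.4%) and 7.14% (4.63% to 10.4%). Among other nuclear genes the shares were 4.58% on X and 4.96% on autosomes in replicate 2, and 2.42% and 1.51% in the pooled list. In replicate 1 the tRNA shares were 70.7% on X and 67.9% on autosomes, against 55.9% and 38.6% of other genes. That wide gap among the other genes is over a mixed set that includes the 15363 piRNA genes. In replicate 1 ncRNA genes alone had 62.1% on X and 54.7% on autosomes, and snoRNA genes 42.4% and 71.2%. Protein-coding genes alone had 52.8% on X and 48.3% on autosomes in replicate 1, 3.84% and 4.96% in replicate 2, and 1.57% and 1.58% in the pooled list. Of the 13 tRNA genes with a thresholded peak, 11 were on X.

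**Figure D4:**
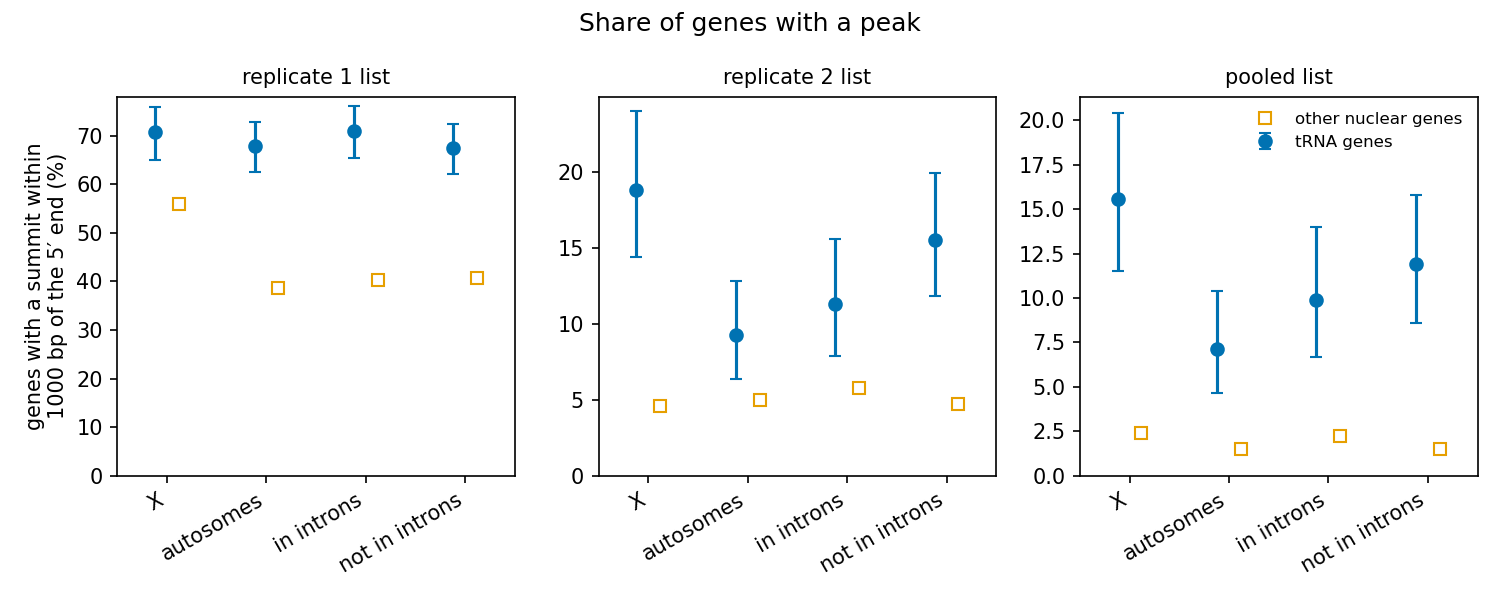
Share of genes with a summit within 1000 bp of the 5′ end (y axis, %, a separate scale in each panel) for tRNA genes (filled points with exact 95% intervals) and other nuclear genes (open squares), on X, on autosomes, inside introns and not inside introns, in 3 lists. tRNA genes lie above other genes in every column, and on X above autosomes by 18.8% against 9.23% in replicate 2.

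Because neighbouring tRNA genes can share a peak, the X comparison was tested on loci, in which genes with 5′ ends within 1000 bp of each other were joined. There were 480 loci, 198 on X and 282 on autosomes. In replicate 1 a peak was present at 73.2% of X loci and 63.8% of autosomal loci, a difference of 9.4 percentage points (Newcombe 95% interval 0.909 to 17.5; two-sided Fisher's exact p = 0.0372, adjusted p = 0.0743). In replicate 2 the shares were 17.2% and 9.22%, a difference of 7.95 points (1.88 to 14.5; exact p = 0.0115, adjusted p = 0.0688). In the pooled list they were 13.6% and 7.45%, a difference of 6.19 points (0.693 to 12.2; exact p = 0.0305, adjusted p = 0.0743). X was higher in all 3 lists, and none of the differences passed 0.05 after Benjamini-Hochberg adjustment over the 6 tests. Loci of 2 genes or more were 53 of the 198 on X and 45 of the 282 on autosomes. At these, replicate 1 had the opposite order, with 77.4% on X and 91.1% on autosomes and overlapping intervals. Replicate 2 and the pooled list did not, with 22.6% against 11.1% and 20.8% against 4.44%. At single-gene loci X was higher in all 3 lists, by 71.7% against 58.6%, 15.2% against 8.86% and 11% against 8.02%. The part of locus size in the X difference was not tested. With genes joined within 5000 bp all 3 X differences passed (adjusted exact p = 0.0268 each). With every gene counted singly those of replicate 2 and the pooled list did (adjusted exact p = 0.00319 each). Genes counted singly can share 1 peak and are not independent, so these p values count some peaks more than once. The tests compare loci within a list and measure no spread between worm populations.

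The X and autosome shares of replicate 1 were also counted at the list length of replicate 2. With the 2007 strongest peaks of replicate 1, 84 tRNA genes had a peak (13.7%), 14.9% of those on X and 12.8% of those on autosomes, and the intervals overlapped. On loci the difference was 4.46 points (adjusted exact p = 0.222). Whether the X difference itself differed between the replicates was not tested. By chromosome, the share in replicate 2 was highest on X with 18.8%, then III with 15.6% (7.76% to 26.9%), II with 12.3%, I with 7.58%, V with 6.41% and IV with 5.63%. The intervals of III, II (5.08% to 23.7%) and I (2.51% to 16.8%) overlapped that of X (14.4% to 24%). Those of V (2.11% to 14.3%) and IV (1.56% to 13.8%) did not, and single chromosomes were not tested. The order was different in replicate 1, with II first at 82.5% (70.1% to 91.3%) and I last at 60.6% (47.8% to 72.4%).

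tRNA genes lie inside introns of protein-coding genes more often than other genes do, with 283 of 612 against 17.9% of the other nuclear genes. On X the share is 34.4% and on autosomes 56%. Per gene, 71% of intronic tRNA genes and 67.5% of the rest had a peak in replicate 1, against 40.3% and 40.8% of other nuclear genes inside and outside introns. In replicate 2 the shares were 11.3% (7.86% to 15.6%) and 15.5% (11.8% to 19.9%), against 5.79% and 4.72%, and in the pooled list 9.89% and 11.9%, against 2.23% and 1.5%. Intervals of intronic genes and the rest overlapped in all 3 lists. The thresholded list had 2 intronic genes and 11 others.

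On loci, a peak was present at 66.8% of the 229 intronic loci and 68.5% of the 251 others in replicate 1, a difference of −1.71 points (−10.1 to 6.61; two-sided Fisher's exact p = 0.697, adjusted p = 0.697). The differences were −5.53 points in replicate 2 (−11.4 to 0.434; exact p = 0.0733, adjusted p = 0.11) and −2.42 points in the pooled list (−7.83 to 3.07; exact p = 0.447, adjusted p = 0.536). None passed, and the intervals allow a difference of either sign. The sign turned in replicate 1 with every gene counted singly (3.55 points). Genes on the strand of the host (161 of the 283) had shares of 70.2%, 11.2% and 8.07% in replicate 1, replicate 2 and the pooled list, and those on the opposite strand only had 72.1%, 11.5% and 12.3%, with overlapping intervals.

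Intronic and other loci were also set side by side on X and on autosomes alone. In replicate 2, 13.9% of intronic and 19% of other loci on X had a peak, and 7.64% and 11.2% on autosomes. In replicate 1 the pairs were 73.6% and 73% on X and 63.7% and 64% on autosomes. In the pooled list intronic loci had the lower share on X, with 9.72% against 15.9% of other loci. On autosomes they had the higher share, with 8.28% (4.48% to 13.7%) against 6.4% (2.8% to 12.2%), and these intervals overlapped. Loci of more than 1 gene, which hold more 5′ ends by definition, had a peak more often than single genes in replicate 1, with 83.7% (74.8% to 90.4%) against 63.6% (58.6% to 68.4%). In replicate 2 they had 17.3% against 11.3%, with overlapping intervals.

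Both replicate lists had a peak at 49 of the 480 loci (10.2%, 7.65% to 13.3%), 29 on X and 20 on autosomes. Of these, 28 had a pooled peak as well and 7 a thresholded peak. The peaks counted for a locus need not overlap each other. Replicate 1 alone had a peak at 325 of the 480 loci (67.7%) and replicate 2 at 60 (12.5%). A locus with a replicate 2 peak would thus often have a replicate 1 peak too, so the count by itself does not show agreement of the replicates. The share of other nuclear genes with a peak in both lists was not counted. The 28 loci also in the pooled list are named here. The 18 on X were R04A9.t1, F38G1.t2, T14F9.t1, C42D8.t1, T28B4.t1, C28G1.t1, ZK899.t1, F34H10.t1, W03G11.t1 and C02B4.t2 as single genes, and the clusters of M02F4, C18A11, F22F1, F41D9, H35N09, H08J11, C53C7 and R11. The 10 on autosomes were F14B4.t1, T23H4.t1, M01E5.t1, F52C9.t1, the K04C2 cluster, sup-5, C43G2.t1, K06A4.t1, T19C4.t1 and C06B8.t3. The gene sup-5 is a tryptophan tRNA gene known for amber suppressor alleles. Its paired peaks scored 12.5 in replicate 1 and 15.9 in replicate 2. Of the 18 loci on X, 5 were intronic, and of the 10 on autosomes, 7.

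The F22F1 cluster on X was among the largest loci, with 6 genes from F22F1.t2 to F22F1.t7 over 2262 bp between their outer 5′ ends. Its paired peak was nearest F22F1.t6, a methionine gene, with scores of 8 in replicate 1 and 21.5 in replicate 2. That pair ranked 19147 among the 30000 nuclear peaks of replicate 1 and 150 among the 2007 of replicate 2. M01E5.t1, a lysine gene, had scores of 6.83 and 21.5, with ranks 26248 and 155.

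By isotype, glutamine tRNA genes had the highest share in replicate 2, with 9 of 27 genes (33.3%), and the same number in both replicates and in the pooled list. Serine followed with 9 of 39 (23.1%), aspartate with 6 of 27 (22.2%), phenylalanine with 3 of 14 (21.4%) and tyrosine with 4 of 19 (21.1%). Histidine and cysteine genes, 20 and 13 in number, had 0 in replicate 2 and in the pooled list. In replicate 1 the histidine share was 50% and the cysteine share 76.9%, so these genes were not bare of peaks in the longer list. Arginine had the highest share in replicate 1 (81.8%) and came behind glutamine and tyrosine in the pooled list (20.5%, 9 of 44), with 9.09% in replicate 2. In the thresholded list tyrosine had 3 genes, all at R11, glutamate, lysine and proline 2 each, and arginine, glycine, isoleucine and phenylalanine 1 each.

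**Figure D5:**
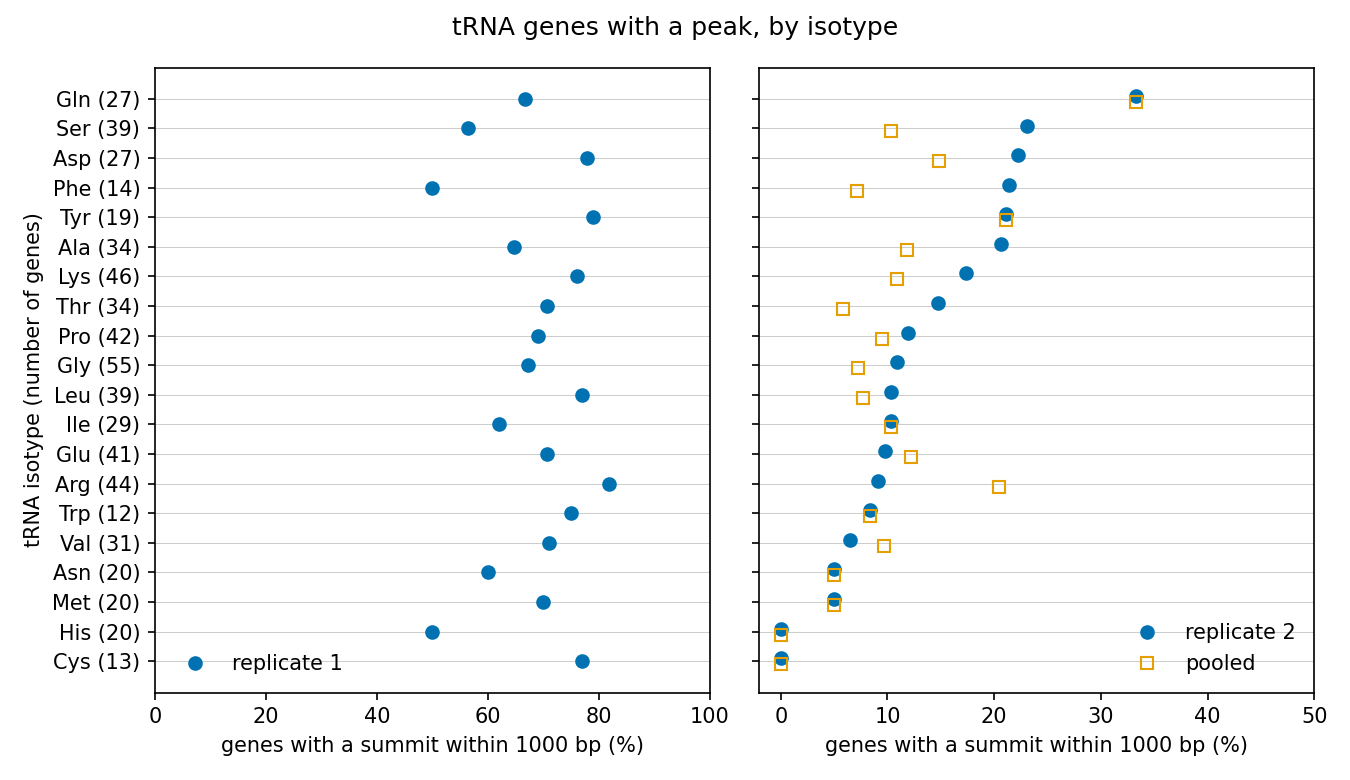
Share of tRNA genes with a summit within 1000 bp (x axis, %) for each isotype (y axis, number of genes in brackets, ordered by the replicate 2 share), in replicate 1 on the left and in replicate 2 and the pooled list on the right. Glutamine is highest on the right at 33.3% and histidine and cysteine are at 0, while replicate 1 runs from 50% to 81.8% in another order. The 1 selenocysteine gene and the 5 genes with no isotype are not drawn.

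The isotype order differed between the replicates, and each share rests on few loci, since clustered genes of an isotype share peaks. The glutamine genes include the H08J11 cluster, where 1 summit reached 5 genes of the 9. Isotypes were not tested. The annotation gives no anticodon, and 5 of the 612 genes have no isotype.

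tRNA genes with a sequence found once were less frequent in the pooled list than genes with identical copies, while in each replicate list the intervals overlapped. The 612 genes have 200 distinct sequences, 140 genes have a sequence found once, and the largest family has 29 copies. The share with a peak in replicate 1 was 70.7% for genes found once, 67.3% for those with 2 to 9 copies and 69.3% for those with 10 or more. In replicate 2 it was 12.1%, 13.1% and 14.4%, with overlapping intervals in both lists. In the pooled list it was 3.57% (5 of 140, 1.17% to 8.14%) for genes found once, 14.4% (9.24% to 21%) and 12.5% (9.11% to 16.7%), and in the thresholded list 0 of 140, which allows up to 2.6% by the exact interval, 1.96% and 3.13%. In the thresholded list the intervals overlapped.

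The pooled interval of genes found once did not overlap those of the other families. It included the 1.63% of other nuclear genes. All 13 genes with a thresholded peak had identical copies elsewhere in the genome. Of the genes found once, 16 had a peak in both replicate lists (11.4%), beside 11.8% of all 612 tRNA genes. The sources used here do not say whether reads that match several copies equally well were kept or where they were placed, and their part in these counts was not tested. On X 19.9% of tRNA genes were found once and on autosomes 25.3%. Among the genes found once, a replicate 2 peak was present at 20% on X (11 of 55, 10.4% to 33%) and at 7.06% on autosomes (6 of 85, 2.63% to 14.7%), and a pooled peak at 3.64% and 3.53%.

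The B box core GTTCNA, searched on both strands within 100 bp of summits, was in 52.2% of tRNA peak windows in replicate 1, 70% in replicate 2, 69.4% in the pooled and 66.7% in the thresholded list. Over all nuclear peaks it was in 37.5%, 37%, 36.7% and 42.5% of windows. Where the summit was within 100 bp of the tRNA gene the share was 80.5% in replicate 1, since such windows usually take in the gene itself, and beyond 500 bp it was 32.2%. Of the 24 genes without the core, 15 had a peak in replicate 1 and 3 in replicate 2, shares of 62.5% and 12.5% beside 69.4% and 13.6% of those with it.

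AAGTTT, the core of the sequence that Myt1 family zinc fingers are known to bind, stood at similar shares at tRNA peaks and elsewhere in replicate 1 and in the pooled list. Searched on both strands in the same windows, it was in 24.8% of tRNA peaks in replicate 1 against 23.1% of all nuclear peaks, 28.3% against 34.5% in replicate 2, 20.4% against 19.4% in the pooled list and 2 of 9 against 12.3% in the thresholded list. Windows of tRNA peaks had a median G and C content of 42.3%, 41.8%, 45.8% and 42.3% in the 4 lists, against 40.8%, 33.8%, 42.8% and 43.8% of all nuclear peaks. In replicate 2 the tRNA windows were thus richer in G and C than the rest of the list, and the part of base content in the motif shares was not tested.

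Genes of the proteins that charge, transcribe and process tRNA were set beside the tRNA genes. Of 32 aminoacyl-tRNA synthetase genes, which attach amino acids to tRNA, 14 had a peak within 1000 bp of the 5′ end in replicate 1, 3 in replicate 2, 1 in the pooled list and 0 in the thresholded list. The 1 was ears-2, a glutamyl-tRNA synthetase gene, with a score of 6.74 in replicate 1, 28.3 in replicate 2 (rank 38) and 30.5 in the pooled list, and summits 41 to 44 bp from its 5′ end. The others in replicate 2 were rars-1 with 17.6 at 841 bp and fars-2 with 14.7 at 504 bp. Over all protein-coding genes a peak was present at 48.9% in replicate 1, 4.81% in replicate 2, 1.58% in the pooled list and 0.205% in the thresholded list, and at counts this small no difference from these shares was tested.

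Of 14 genes for RNA polymerase III, its factors and tRNA processing, 4 had a peak in replicate 1, 4 in replicate 2 and 0 in the pooled and thresholded lists. The same shares over all protein-coding genes, 48.9%, 4.81%, 1.58% and 0.205%, apply beside these counts. The strongest in replicate 2 was rpac-19, a subunit shared by RNA polymerases I and III, with 24.8 at 137 bp (rank 59) and no replicate 1 peak. rtcb-1, the RNA ligase that joins the exons of spliced tRNA, had 6.61 at 297 bp in replicate 1 and 22.9 at 800 bp in replicate 2. mafr-1, the worm Maf1 repressor of polymerase III, had 15.7 at 380 bp in replicate 2 alone, and the TFIIIC subunit gene tftc-3 had 13.5 at 557 bp in replicate 1 alone. Except for rtcb-1, none of the 14 had a peak in both replicate lists.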

How the data were processed

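ChIP-seq peak lists of 2 biological replicates of eGFP-ztf-11 L3 worms were used, with the pooled and thresholded lists made from both, all on ce11. Per the deposited text records, each list was derived from alignments and a control. The sources used here do not name the peak caller, the aligner, the read filters or the threshold of the thresholded list. Per the labels, the library size range was 150 to 350. For each peak the authors deposited a signal score, whose scale is not stated, the −log10 of the q value, and the summit offset from the peak start. Read depth is unknown, so no interval includes read sampling. The lists on ce10 were not used, and 0 further per-sample columns were left unused.

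Genes, biotypes and introns came from Ensembl release 115 (WBcel235). Names, isotypes and sequences came from RefSeq, matched by gene ID for 612 of 612 tRNA genes with equal spans. All 4 lists lay inside the ce11 chromosome lengths. Mitochondrial peaks and genes were left out. A tRNA gene was intronic when it lay whole inside an intron of a protein-coding transcript and overlapped no protein-coding exon. A locus was intronic when all its genes were. Peaks were called shared with an overlap of 1 bp or more.

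Shares have exact Clopper-Pearson 95% intervals. The 6 contrasts used two-sided Fisher's exact tests on loci, adjusted together by Benjamini-Hochberg, with Newcombe intervals. They describe loci of a list, not replicate populations. Python 3.11.15, numpy 2.4.6, pandas 2.3.3, scipy 1.17.1 and statsmodels 0.14.6 were used, and the assignment and test steps were checked on simulated lists. Named genes were those of the thresholded peaks, the 10 strongest tRNA peaks of each other list, the peaks on each side of 1000 bp, and the loci in both replicate lists and the pooled list. Genes of polymerase III and the synthetases were a fixed list. Other genes named, among them F22F1.t6, were chosen after their values were seen. The members and lists were chosen with earlier results of these data known. Alternatives tried were the distance, overlap with the gene, the stronger 50% of each list, genes found once, single genes, merging within 5000 bp, equal list length and leaving out each replicate.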

Additional observations from a re-analysis of the deposited data

How the results depend on the processing

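No paired analysis was possible because the study has 1 group, so no replicate number is shared between groups. X loci had a peak more often than autosomal loci in all 24 pairings of a list with an alternative setting. In 9 of these the difference passed 0.05 after adjustment. In the other 15 it did not, with differences from 0.552 to 21.3 points, both at genes found once, in the pooled list and in replicate 1. Other small ones were 2.8 in replicate 1 with single genes and 3.83 in the pooled list with the stronger 50% of the peaks. Pairings that leave out a replicate repeat the difference of a single list. The pairings reuse the same lists and are not independent of each other. Among the differences that passed, that of the pooled list with summits within 500 bp was 7.61 points. With the peak required to overlap the tRNA gene it was 7.91 in replicate 2 and 6.95 in the pooled list. With single genes, which can share a peak and are not independent, it was 9.61 and 8.44. With genes merged within 5000 bp it was 11.4 in replicate 1, 9.68 in replicate 2 and 8.03 in the pooled list, and the intron difference in replicate 2 passed too at −8.78. Leaving out each replicate gave 7.95 to 9.4 for the pooled X difference, since the list of the other replicate then takes its place. Without replicate 1 the 7.95 is thus the replicate 2 difference again. Its adjusted exact p was 0.0344 there and 0.0688 in the main tests. The same comparison then entered the adjustment more than once, so this pass is no further result. The intron difference reversed in 3 cases, to 1.74 in replicate 1 and 0.536 in the pooled list with the stronger 50% of the peaks, and to 3.55 in replicate 1 with single genes. The share of loci in both replicate lists was 14.2% with summits within 2000 bp, 7.5% with overlap and 5.83% with the stronger 50%, and with each replicate left out it was 12.5% to 67.7%, the share of 1 list. Counts of tRNA peaks in replicate 1 were 718 within 2000 bp, 222 with overlap, 276 in the stronger 50%, 134 at genes found once and 66 at the length of replicate 2. They were 15 at genes found once in replicate 2, 28 in the stronger 50% and 5 at genes found once in the pooled list, 60 to 467 with each replicate left out, and 2 and 0 in the thresholded list. Fewer peaks or genes enter most of these counts by construction; other causes were not tested. The unknown read depth limits all shares.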
